A study of Vitis riparia with 12 samples.

Results

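The genes described here encode the enzymes that close the flavonoid pathway towards proanthocyanidins and anthocyanins. They were chosen by their identifiers, which came with the names DFR, LDOX, LAR1, LAR2, ANR and UFGT, by a rule that uses no measured value. All 6 were found among the 29970 identifiers of the deposited files, which hold no gene names. Their transcripts were measured by RNA sequencing of shoot tips from Vitis riparia, a wild grapevine in which shortening days bring shoot growth to a stop and buds to dormancy, and the series asks what a shorter photoperiod does to the transcripts of the tip. The 4 groups were SD21 and LD21, sampled after 21 days of a photoperiod of 13 h (SD) or of a continued 15 h (LD), and SD7 and LD7, sampled after 7 days of the same treatments. All vines were of 1 genotype, PI588259, were 6 years old, grew in pots in a greenhouse and had spent 35 days in total at 15 h before the treatments began. Each group had 3 libraries, and each library pooled shoot tips of 4 nodes from 5 vines, so variation between single vines was not measured. A shoot tip is bulk tissue, in which fewer cells of a type and less RNA per cell cannot be told apart.

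In this pathway DFR, dihydroflavonol reductase, makes the colourless leucoanthocyanidins. Leucoanthocyanidin reductase, of which LAR1 and LAR2 are separate genes, turns these into catechin, while LDOX, leucoanthocyanidin dioxygenase, oxidises them to the coloured anthocyanidins. Anthocyanidin reductase, ANR, turns anthocyanidins into epicatechin, and UFGT, a flavonoid glucosyltransferase, adds glucose to them and so makes stable anthocyanin pigments. Catechin and epicatechin are the building units of proanthocyanidins, the condensed tannins of grape seeds, skins and young tissue. DFR and LDOX therefore serve both products, LAR and ANR lead to tannins, and UFGT leads to pigment.

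The members lie apart in the genome. In the coordinates of the files, whose genome build is not given in the sources used here, DFR (VIT_18s0001g12800) spans 10907363 to 10910253 on chromosome 18 and LDOX (VIT_02s0025g04720) 4282478 to 4283947 on chromosome 2. LAR1 (VIT_01s0011g02960) lies on chromosome 1 at 2632785 to 2636066 and LAR2 (VIT_17s0000g04150) on chromosome 17 at 4274479 to 4277475. ANR (VIT_00s0361g00040) lies at 25598896 to 25602162 on the sequence called Un, which is assigned to no chromosome, and UFGT (VIT_16s0039g02230) on chromosome 16 at 2333167 to 2334679. The files give 1 interval per gene and no exons. None of the 6 intervals overlaps a neighbouring one, and the closest neighbour, next to LAR1, was 116 bp away.

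The files give FPKM, read counts scaled by transcript length and by the mapped reads of the library, so levels can be set side by side between genes. The absolute depth is unknown. FPKM summed to between 1065021 and 1106294 in the SD21 libraries and between 982454 and 1061565 in the other 9. The 10 most abundant genes of a library held 16.2% to 21.3% of its FPKM in SD21, against 4.81% to 5.85% in LD21, and at day 7 9.39% to 9.94% in SD7 and 8.48% to 9.05% in LD7. Over the 21848 tested genes the median log2 difference was -0.30 in SD21 against LD21, but 0.02 after quantile normalization. Whether the share held by the 10 most abundant genes bears on this median was not tested. SD21 replicate 3 was the lowest SD21 library for all 6 members, so values without it are given beside the results that rest on it. No member was listed at 0 in any library, and all 6 passed the filter of 1 FPKM in 3 libraries.

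LDOX was the most abundant transcript of the branch in every library. It ranked between 58 and 98 among all genes of the LD21 libraries. Under LD21 the order of mean levels was LDOX, ANR, DFR, LAR1, LAR2 and UFGT, and only the last pair, LAR2 and UFGT, overlapped between libraries. The same order held in SD7 and LD7, where LAR1 and LAR2 overlapped, as did LAR2 and UFGT in LD7. In SD21 the order was LDOX, ANR, LAR2, DFR, LAR1 and UFGT, and the ranges of neighbours overlapped from LDOX down to DFR. LAR2 stood above LAR1 in the 3 SD21 libraries and below it in the 3 LD21 libraries.

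**Figure D1:**
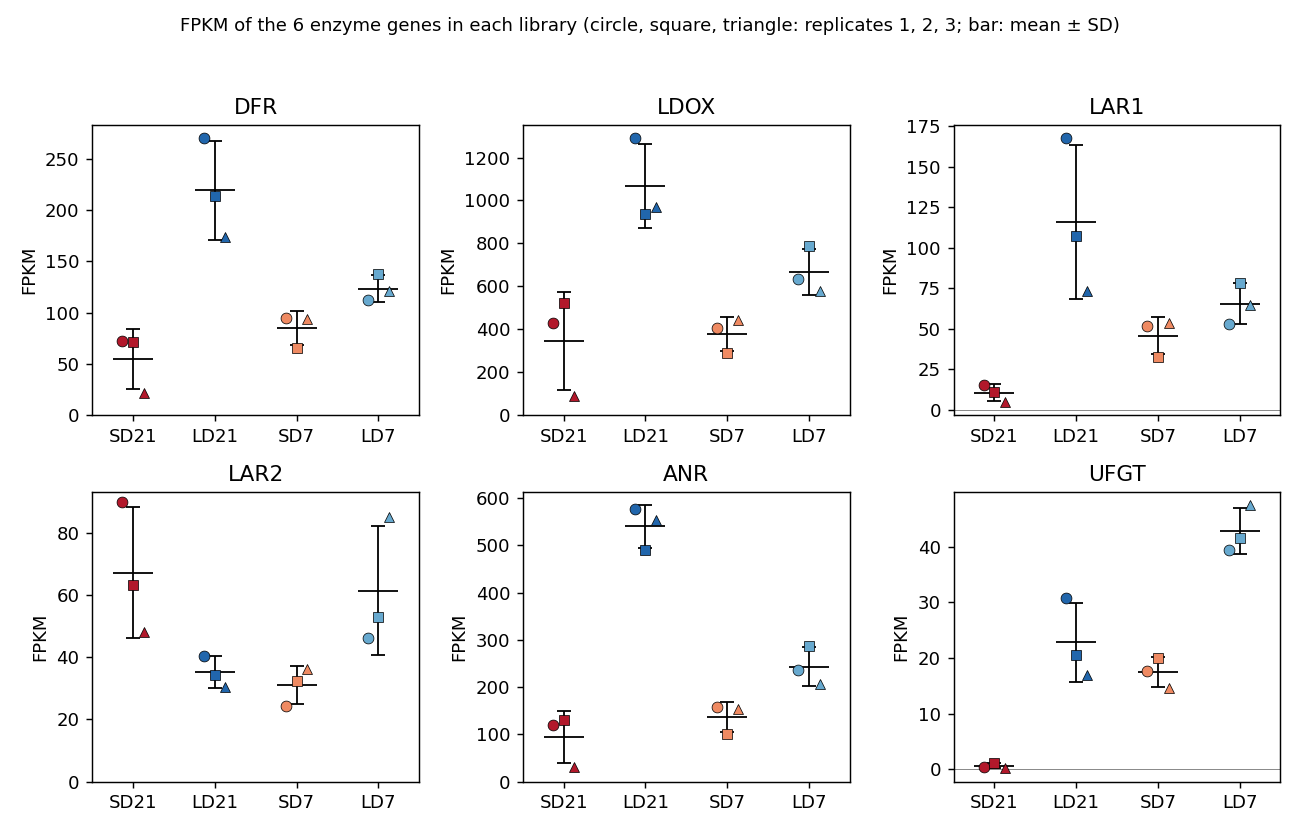
FPKM (vertical axis) of each gene in the groups SD21, LD21, SD7 and LD7, with 1 point per library and the mean and SD of 3 libraries. The LD21 libraries lie above the SD21 libraries in 5 panels and below them in the LAR2 panel, and UFGT lies between 0.188 and 1.11 in SD21.

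Photoperiod at day 21 separated the branch into 5 genes with a lower and 1 with a higher level in SD21. DFR, LDOX, LAR1, ANR and UFGT were lower in SD21 than in LD21, and LAR2 was higher. A gene was called when its Benjamini-Hochberg adjusted p from limma, over all tested genes, was under 0.05. By that rule 43.7% of tested genes were lower in SD21, 24.6% were higher and 68.3% were called in all, so a call at day 21 was common. The split of all calls depended on scaling, with 36.0% of calls higher as deposited and 50.8% after quantile normalization. The median log2 fold change of the 6 members was -2.45. Every SD21 library lay below every LD21 library for the 5 lower genes, which held for 44.5% of tested genes, and above them for LAR2, which held for 25.3%.

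Of the genes that serve both products, DFR had 72.4, 71.6 and 21.3 FPKM in SD21, against 270, 214 and 173 FPKM in LD21. Replicate 3 of SD21 was far below the other two. The mean of DFR was 55.1 ± 29.3 FPKM in SD21 and 219 ± 48.7 FPKM in LD21 (SD, n = 3 each), and its log2 fold change, on log2(FPKM + 1) as for all fold changes here, was -2.14 ± 0.39 (SE, adjusted p = 0.00052). Without SD21 replicate 3 the log2 fold change of DFR was -1.57. LDOX had 431, 521 and 88.7 FPKM in SD21, against 1291, 939 and 969 FPKM in LD21. The log2 fold change of LDOX was -1.95 ± 0.53 (SE, adjusted p = 0.0069), and -1.15 without SD21 replicate 3, still called. LDOX had the largest standard error of the 6 genes, since SD21 replicate 3 lay far below both other SD21 libraries.

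The genes that lead to proanthocyanidin units split. LAR1 had 15.4, 11.1 and 4.95 FPKM in SD21, against 167, 107 and 73.6 FPKM in LD21, so that the highest SD21 library was far below the lowest LD21 library. Its mean was 11.1-fold lower in SD21 (log2 fold change -3.39 ± 0.38, SE, adjusted p = 1.4e-05), and 2.42% of tested genes had a lower fold change. LAR2, in contrast, had 89.8, 63.2 and 48.2 FPKM in SD21, against 40.5, 34.4 and 30.4 FPKM in LD21. Its mean was 1.91-fold higher in SD21 (log2 fold change 0.88 ± 0.26, SE, adjusted p = 0.011). Without SD21 replicate 1 the log2 fold change of LAR2 was 0.65, with an adjusted p of 0.048 close to the threshold. The groups did not overlap, but the gap between 48.2 and 40.5 FPKM was small beside the spread of the SD21 libraries.

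ANR had 121, 131 and 30.3 FPKM in SD21, against 578, 490 and 553 FPKM in LD21. The LD21 libraries lay close together and the SD21 libraries did not. Its mean was 94.1 ± 55.4 FPKM in SD21 and 540 ± 45.4 FPKM in LD21 (SD, n = 3 each), for a log2 difference of -2.76 ± 0.45 (SE, adjusted p = 0.00023), and -2.09 without SD21 replicate 3. ANR was the second most abundant member under LD21, where it ranked between 262 and 316 in its library, and it ranked between 1244 and 4889 in SD21.

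UFGT, the enzyme that completes the pigment, had the largest fold change of the 6. It had 0.451, 1.11 and 0.188 FPKM in SD21, against 30.8, 20.5 and 17.0 FPKM in LD21. The SD21 libraries were all close to the lower end of measurement, and because depth is unknown no counting interval can be given for them. The log2 fold change of UFGT was -3.91 ± 0.24 (SE, adjusted p = 1.2e-07), a value that the added 1 FPKM makes smaller. With a pseudocount of 0.1 it was -5.26, and its mean FPKM was 39.1-fold lower in SD21. Only 1.42% of tested genes had a lower fold change on the scale with 1 FPKM added.

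**Figure D2:**
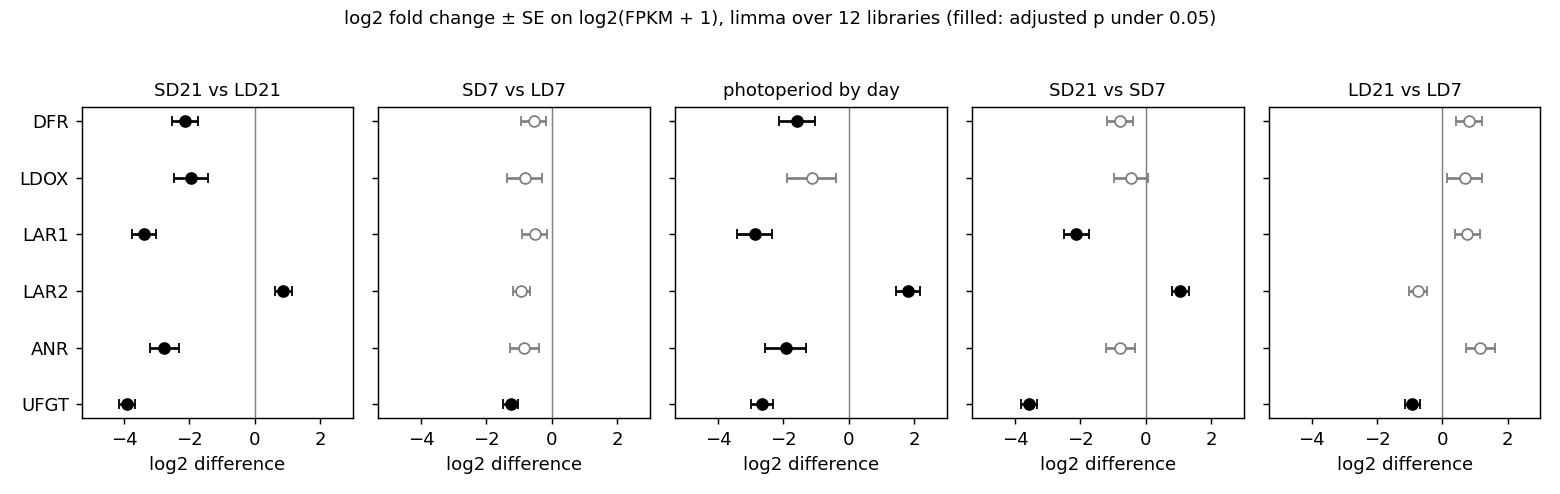
Log2 differences (horizontal axes) with their SE for each gene in 5 comparisons, from limma on log2(FPKM + 1) over 12 libraries. Filled points passed an adjusted p of 0.05, and the panel of photoperiod by day gives the difference at day 21 minus that at day 7. LAR2 is the only gene to the right of 0 for SD21 vs LD21, photoperiod by day and SD21 vs SD7, and all 6 points lie left of 0 at day 7.

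At day 7 all 6 members had negative log2 fold changes in SD7 against LD7, and UFGT alone was called. Few genes were called at that time, with 0.476% of tested genes called lower, 0.357% called higher and 0.833% called in all. These counts, 78 genes higher and 104 lower, were 3 and 6 when the SD7 and LD7 libraries alone were fitted. They were 0 and 0 in limma without LD7 replicate 2, where 926 and 1232 genes had an unadjusted p under 0.05, and at most 22 and 81 without any other 1 of the 6 day 7 libraries. Day 21 libraries bore on them too. Leaving out LD21 replicate 2 gave 28 higher and 41 lower genes, leaving out SD21 replicate 1 gave 45 higher and 55 lower, and leaving out SD21 replicate 3 gave 56 higher and 69 lower. UFGT had 17.7, 20.0 and 14.7 FPKM in SD7, against 39.5, 41.5 and 47.5 FPKM in LD7. Its libraries did not overlap, its mean was 2.46-fold lower in SD7, and the log2 fold change was -1.26 ± 0.24 (SE, adjusted p = 0.043). That call lay close to the threshold. It was lost without any 1 of the 6 day 7 libraries, without LD21 replicate 2 or without SD21 replicate 1, with adjusted p from 0.0561 to 0.162, while the log2 fold change stayed between -1.35 and -1.14. It was also lost in 6 of the processing alternatives (adjusted p from 0.0512 to 0.190), which include the replicate block (0.0593).

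The remaining 5 genes did not pass at day 7, although 4 of them had separate groups. LAR2 had 24.3, 32.4 and 36.2 FPKM in SD7, against 46.1, 53.0 and 84.8 FPKM in LD7 (log2 fold change -0.93 ± 0.26, SE, adjusted p = 0.13, unadjusted p = 0.0045). ANR had 158, 100 and 153 FPKM in SD7, against 237, 287 and 207 FPKM in LD7 (log2 fold change -0.84 ± 0.45, SE, adjusted p = 0.42). LDOX had 403, 287 and 442 FPKM in SD7, against 632, 788 and 580 FPKM in LD7 (log2 fold change -0.83 ± 0.53, SE, adjusted p = 0.51). In each of these the SD7 libraries lay below the LD7 libraries, without a call. DFR had 95.1, 65.9 and 93.3 FPKM in SD7, against 112, 137 and 121 FPKM in LD7, also without overlap (log2 fold change -0.55 ± 0.39, SE, adjusted p = 0.56). LAR1 overlapped, with 51.5, 32.6 and 53.5 FPKM in SD7 and 53.0, 78.1 and 64.9 FPKM in LD7 (log2 fold change -0.52 ± 0.38, SE, adjusted p = 0.58). The spread in these tests was shared by all 4 groups. Without SD21 replicate 3, a library outside this comparison, the adjusted p was 0.072 for ANR and 0.090 for LDOX. It was 0.11 for LAR2, 0.20 for DFR and 0.45 for LAR1. With the SD7 and LD7 libraries alone fitted it was 0.11 for ANR and LDOX, 0.13 for LAR2, 0.15 for DFR and 0.28 for LAR1. None of the 5 genes was called in any alternative. In all, 5 of 6 members had SD7 libraries below the LD7 libraries without overlap, which held for 13.7% of tested genes. For 11.1% of tested genes the SD7 libraries lay above the LD7 libraries without overlap. The median log2 fold change was -0.83 for the members and -0.03 for all tested genes.

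Whether the photoperiod difference itself changed between the days was tested as the SD21 minus LD21 difference less the SD7 minus LD7 difference. It was called for 5 of the 6 members, against 55.1% of tested genes in all, 35.5% of tested genes in the direction of a lower and 19.6% of a higher value at day 21. For LAR2 the difference between days was 1.81 ± 0.37 (SE, adjusted p = 0.0017) on the log2 scale. LAR2 thus stood below the LD libraries at day 7, without a call, and above them at day 21. LAR1 had -2.87 ± 0.54 (SE, adjusted p = 0.0010) and UFGT -2.65 ± 0.34 (SE, adjusted p = 6.2e-05). These 3 genes stayed called in each of the 19 alternatives run.

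The differences between days of DFR and ANR were less secure. DFR had -1.59 ± 0.55 (SE, adjusted p = 0.031) and ANR had -1.92 ± 0.63 (SE, adjusted p = 0.024). Without SD21 replicate 3 the values were -1.02 for DFR and -1.25 for ANR, both still called. The call of DFR was lost without LD21 replicate 1 or 2, SD7 replicate 1 or 3, or LD7 replicate 1 or 3, with adjusted p from 0.0531 to 0.0698. ANR lost its call without SD7 replicate 1 (adjusted p = 0.0544) or LD7 replicate 3 (adjusted p = 0.0538). Both calls were also lost with median-ratio scaling (adjusted p = 0.0728 for DFR and 0.0529 for ANR) and without the filter on low values (0.0694 and 0.0576). Over all alternatives the adjusted p ran from 0.0111 to 0.0728 for DFR and from 0.0036 to 0.0576 for ANR. LDOX was not called, at -1.13 ± 0.75 (SE, adjusted p = 0.23), and at -0.32 without SD21 replicate 3.

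With time under the short photoperiod, LAR1 and UFGT fell and LAR2 rose, and the other 3 members were not called. In SD21 against SD7, 37.7% of tested genes were called lower, 23.4% higher and 61.1% in all. UFGT had 0.451, 1.11 and 0.188 FPKM in SD21, against 17.7, 20.0 and 14.7 FPKM in SD7 (log2 fold change -3.57 ± 0.24, SE, adjusted p = 4.6e-07). LAR1 had means of 10.5 ± 5.26 FPKM in SD21 and 45.9 ± 11.5 FPKM in SD7 (SD, n = 3 each), which gave -2.12 ± 0.38 on the log2 scale (SE, adjusted p = 0.00063). LAR2 had 67.1 ± 21.1 FPKM in SD21 and 31.0 ± 6.06 FPKM in SD7 (SD, n = 3 each), which gave 1.06 ± 0.26 (SE, adjusted p = 0.0045). Its SD21 libraries, at 48.2 to 89.8 FPKM, overlapped those of LD7, at 46.1 to 84.8 FPKM. The SD21 libraries lay below the SD7 libraries without overlap for LAR1 and UFGT, as for 39.7% of tested genes, and above them for LAR2, as for 25% of tested genes.

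DFR, LDOX and ANR overlapped between SD21 and SD7, with log2 fold changes of -0.78 ± 0.39, -0.45 ± 0.53 and -0.77 ± 0.45 (SE, adjusted p = 0.10, 0.48 and 0.16). Their negative values rested largely on SD21 replicate 3. Without it the log2 fold change was -0.21 for DFR and -0.09 for ANR, and that of LDOX turned to 0.35. DFR passed without SD21 replicate 1 (adjusted p = 0.0451) or SD21 replicate 2 (adjusted p = 0.0482), where replicate 3 weighs more. Over the alternatives the adjusted p of DFR ran from 0.0451 to 0.41.

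With time under the long photoperiod, UFGT fell and no other member was called. In LD21 against LD7, 7.63% of tested genes were called lower, 10.5% higher and 18.1% in all. UFGT had 30.8, 20.5 and 17.0 FPKM in LD21, against 39.5, 41.5 and 47.5 FPKM in LD7, for a log2 difference of -0.92 ± 0.24 (SE, adjusted p = 0.024). The groups did not overlap, but the call was lost without LD21 replicate 2 or 3 or LD7 replicate 2 or 3, with adjusted p from 0.0635 to 0.0886. It was also lost without the filter on low values (adjusted p = 0.0542) and with a pseudocount of 0.1 (0.139), within a range of 0.0142 to 0.139 over all alternatives. LAR2 had 35.1 ± 5.11 FPKM in LD21 and 61.3 ± 20.7 FPKM in LD7 (SD, n = 3 each), also without overlap, for a log2 difference of -0.75 ± 0.26 (SE, adjusted p = 0.070).

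LD21 libraries lay below the LD7 libraries without overlap for 14.8% of tested genes and above them for 28.2%. The other 4 genes had higher means in LD21 than in LD7 and were not called. ANR had 578, 490 and 553 FPKM in LD21, against 237, 287 and 207 FPKM in LD7, groups that were far apart (log2 fold change 1.16 ± 0.45, SE, adjusted p = 0.096). DFR, LDOX and LAR1 had log2 fold changes of 0.81 ± 0.39, 0.67 ± 0.53 and 0.76 ± 0.38 (SE, adjusted p = 0.17, 0.39 and 0.19), and the LD21 and LD7 libraries of DFR and LDOX did not overlap. The spread in this test was shared by all 4 groups. Without SD21 replicate 3, a library outside this comparison, ANR, DFR and LDOX were called higher in LD21, with adjusted p of 0.0050, 0.018 and 0.043, and the same 3 genes were called when the LD21 and LD7 libraries alone were fitted, with adjusted p of 0.013, 0.031 and 0.045. Over all alternatives the adjusted p of ANR reached 0.23, that of DFR 0.35 and that of LDOX 0.59.

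Shares within the branch do not depend on how a library was scaled. Those of ANR, LAR1, LAR2 and UFGT did not overlap between SD21 and LD21. Between LD21 and LD7 the shares of ANR, LAR2 and UFGT did not overlap either, while those of LAR1 did. The summed FPKM of the 6 genes was 574 ± 331 in SD21 against 1999 ± 328 in LD21, and 694 ± 136 in SD7 against 1203 ± 158 in LD7 (SD, n = 3 each). LDOX held 56.7% ± 9.93 of the sum in SD21 against 53.2% ± 1.13 in LD21, and 54.3% ± 1.31 in SD7 against 55.3% ± 2.43 in LD7. DFR held between 8.96% and 12.7% in every library. The shares of LDOX and of DFR overlapped between SD21 and LD21, for LDOX only through SD21 replicate 3, at 45.8%. In SD21 replicates 1 and 2 LDOX held 59.1% and 65.2%, above the LD21 libraries at 52.0% to 54.3%. Without replicate 3 the LDOX share was 8.91 percentage points higher in SD21 than in LD21, against 3.46 with it. The sum was 0.287 of the LD21 mean in SD21, or 0.382 without SD21 replicate 3.

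The remaining shares moved against each other. ANR held 16.6%, 16.4% and 15.7% in SD21, against 24.3%, 27.2% and 30.4% in LD21, and 19.7% ± 1.27 in SD7 against 20.2% ± 1.30 in LD7 (SD, n = 3 each). LAR2 held 12.3%, 7.91% and 24.9% in SD21, against 1.70%, 1.91% and 1.67% in LD21, and 4.61% ± 1.39 in SD7 against 5.21% ± 2.15 in LD7. In SD21 replicate 3, with the share of 24.9%, LAR2 itself was at its lowest SD21 value, 48.2 FPKM. The sum of the 6 genes was 194 FPKM there, against 730 and 799 FPKM in SD21 replicates 1 and 2. LAR1 held 2.11%, 1.39% and 2.56% in SD21, against 7.04%, 5.93% and 4.05% in LD21. UFGT held 0.0992% ± 0.0385 in SD21 and 1.12% ± 0.18 in LD21, and 2.64% ± 0.96 in SD7 against 3.61% ± 0.66 in LD7. None of the SD21 libraries overlapped an LD21 library in these 4 shares, where an exact two-sided permutation test of 3 libraries against 3 cannot give a p below 0.10, and each gave p = 0.10 (0.18 after Benjamini-Hochberg adjustment over 32 tests). The 3 genes that lead to proanthocyanidin units together held 33.3% ± 8.93 in SD21 and 34.7% ± 1.57 in LD21 (exact permutation p = 0.80). The groups overlapped only through SD21 replicate 3, at 43.1%. SD21 replicates 1 and 2 held 31.0% and 25.7%, below the LD21 libraries at 33.1% to 36.2%.

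**Figure D3:**
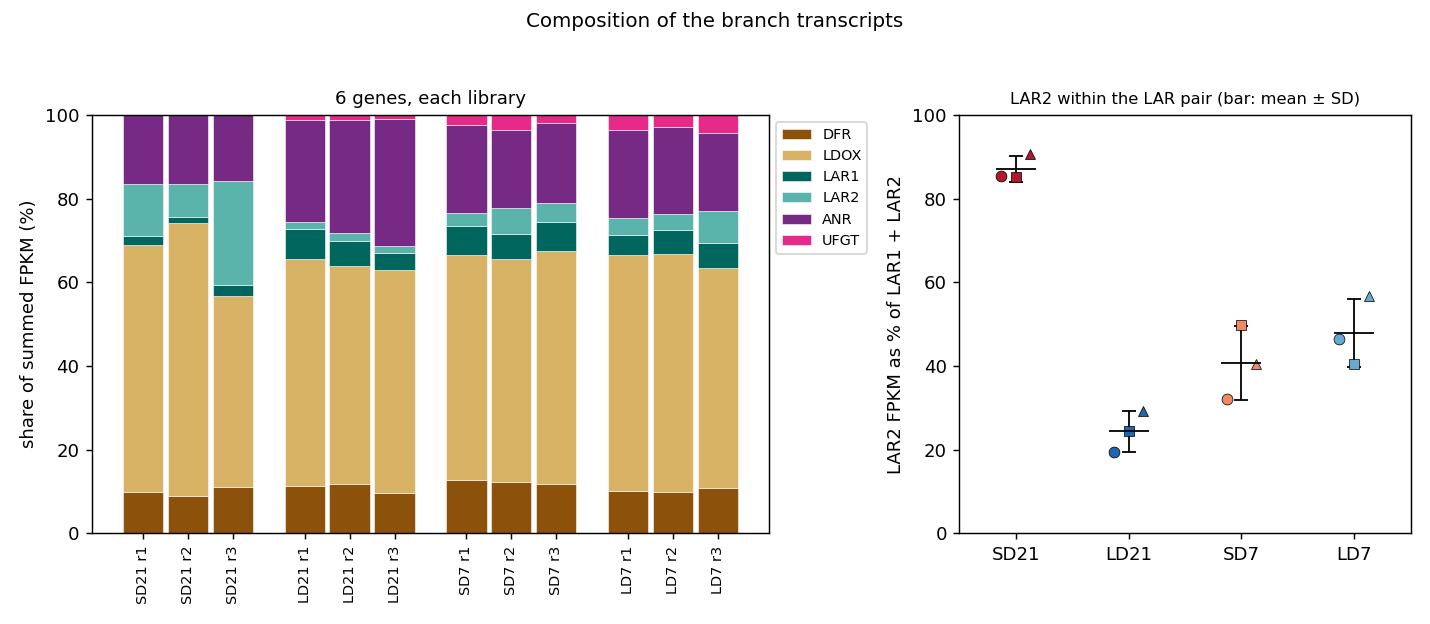
Left, the share of each gene in the summed FPKM of the 6 genes (vertical axis, %) in each of the 12 libraries. Right, LAR2 as a percentage of LAR1 plus LAR2, with 1 point per library and the mean and SD of 3 libraries, which lies between 85.1% and 90.7% in SD21 and between 19.5% and 29.2% in LD21.

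The LAR genes exchanged places within their pair. LAR2 made up 85.3%, 85.1% and 90.7% of the LAR transcripts in SD21, against 19.5%, 24.3% and 29.2% in LD21. At day 7 it made up 32.1%, 49.8% and 40.3% in SD7, against 46.5%, 40.4% and 56.7% in LD7, and these groups overlapped. The log2 ratio of LAR2 to LAR1 was 4.27 higher in SD21 than in LD21, 3.18 higher in SD21 than in SD7, and lower in LD21 (-1.63 ± 0.39) than in LD7 (-0.12 ± 0.47, SD, n = 3 each), with no overlap in any of these 3 pairs of groups. Each gave an exact two-sided permutation p of 0.10, the smallest that 3 against 3 allows, and 0.20 after adjustment over 24 tests of ratios. The sources used here do not say how reads that match more than 1 gene were counted, so reads from a stretch shared by LAR1 and LAR2 could have been counted for either.

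Further ratios set the branches against each other and were taken after 1 FPKM was added to each side, beside which UFGT had 0.188 to 1.11 FPKM in SD21. The log2 ratio of UFGT to LDOX, which stand on the pigment route, was -7.47 ± 1.08 in SD21 and -5.51 ± 0.21 in LD21 (SD, n = 3 each), without overlap. At day 7 this ratio was -4.35 ± 0.53 in SD7 and -3.92 ± 0.32 in LD7, with overlap. It was also lower in LD21 than in LD7 without overlap, by a difference of -1.59. The SD21 minus LD21 difference of this ratio was -1.95, and -3.305 with a pseudocount of 0.1. The log2 ratio of the summed LAR1, LAR2 and ANR to UFGT was 6.68 ± 0.57 in SD21 and 4.90 ± 0.28 in LD21, again without overlap, and 3.53 ± 0.50 in SD7 against 3.08 ± 0.21 in LD7, with overlap. Its SD21 minus LD21 difference was 1.79, and 3.134 with a pseudocount of 0.1. Its LD21 minus LD7 difference was 1.82, also without overlap, so this ratio rose with time under long days too. The log2 ratio of the same sum to LDOX was -0.78 ± 0.64 in SD21 and -0.62 ± 0.09 in LD21 (exact permutation p = 0.70). SD21 replicates 1 and 2 had -0.93 and -1.34, below the LD21 libraries at -0.71 to -0.56, and replicate 3 had -0.09. Without SD21 replicate 3 the SD21 minus LD21 difference was -0.52, against -0.17 with it. LDOX to DFR had 2.47 ± 0.43 in SD21 and 2.29 ± 0.18 in LD21 (exact permutation p = 0.60). SD21 replicates 1 and 2 had 2.56 and 2.85, above the LD21 libraries at 2.13 to 2.48, and replicate 3 had 2.01. Without SD21 replicate 3 the SD21 minus LD21 difference was 0.42, against 0.18 with it. At day 7 LDOX to DFR had 2.14 ± 0.08 in SD7 and 2.42 ± 0.14 in LD7, without overlap (exact permutation p = 0.10).

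The profiles over the 12 libraries placed DFR, LDOX and ANR together. Likeness was measured as the root mean square difference of log2(FPKM + 1) after each gene was centred on its own mean. SD21 replicate 3, in which all 3 were far below the other SD21 libraries, was included, and likeness was not computed without it. It was 0.24 between DFR and LDOX, 0.31 between DFR and ANR and 0.32 between LDOX and ANR. Among 21842 tested genes outside the set, 0 were nearer to LDOX than DFR was, 1 was nearer to LDOX than ANR was, and 3 were nearer to ANR than DFR was. Of the same genes, 1 was nearer to DFR than LDOX was, and 11 were nearer to DFR than ANR was. LAR1 stood at 0.59 from DFR, 0.60 from ANR and 0.75 from LDOX, and 812 outside genes were nearer to LAR1 than DFR was. Among the members UFGT was nearest to LAR1, at 0.93, though 751 outside genes were nearer to UFGT than LAR1 was. LAR2 was nearest to LDOX, at 1.14, but 18639 outside genes (85.3%) were nearer to LAR2 than LDOX was. LAR2 and UFGT were the most distant pair, at 2.10.

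**Figure D4:**
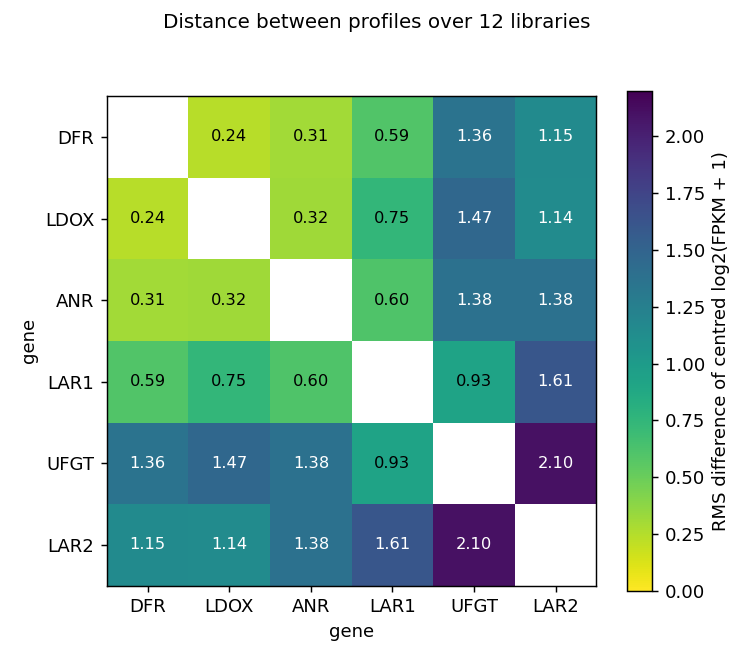
Root mean square difference (colour and printed value, log2 units) between the centred profiles of each pair of genes over 12 libraries. DFR, LDOX and ANR form the block of small differences, from 0.24 to 0.32, and LAR2 is at 1.14 or more from every other gene.

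The gene outside the set with the profile most like ANR was VIT_13s0067g03820, at 0.19, with 88.6 ± 46.8 FPKM in SD21 against 561 ± 184 in LD21, and 129 ± 31.8 in SD7 against 267 ± 39.8 in LD7 (SD, n = 3 each). For DFR it was VIT_02s0012g01570, at 0.22, and for LAR2 VIT_08s0007g03230, at 0.22. The last had 28.2 ± 6.90 FPKM in SD21 against 11.8 ± 0.81 in LD21, and 11.8 ± 2.18 in SD7 against 18.8 ± 5.99 in LD7 (SD, n = 3 each). The genes nearest to LDOX, LAR1 and UFGT stood at 0.24, 0.29 and 0.34. The files do not pair these identifiers with names.

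Of the 36 loci that flank the 6 genes, 3 on each side, 27 were tested, and in SD21 against LD21 5 were called higher and 15 lower, where 24.6% of all tested genes were higher and 43.7% lower. Around LAR1, which was lower, 5 of 6 flanking loci were lower and the sixth was not called. Around LAR2, which was higher, 4 of 6 were lower and 1 was higher. The locus at 2597605 to 2599224 on chromosome 1, near LAR1 and singled out after its values were seen, averaged 2.78 FPKM in SD21 and 114 FPKM in LD21 (log2 fold change -5.05, adjusted p = 3.9e-07). Around ANR 1 of 6 flanking loci was tested, because the others were listed at or near 0, and it was higher.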

How the data were processed

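The deposited FPKM of the 12 libraries, 1 file each, were matched on the gene identifier. The authors' tools were Cufflinks 2.2.1, TopHat2 2.0.13, Bowtie2 2.2.4, cutadapt 1.8.1 and FastQC 0.11.3, per the submitters' processing notes, with parameters, build and annotation not given in the sources used here. Reads were single and 43 bp long, per the labels' protocols. In the file of SD21 replicate 3 the header reads replicate 2, yet the numbers are not those of replicate 2, and the sample label was followed. Libraries of a group shared at most 1 identical nonzero value. The gene table of the reference matched 0 of 29970 identifiers, so neither the rest of the pathway nor tissue markers could be named, and the tissue label was not checked against markers.

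Genes that reached 1 FPKM in 3 or more libraries (21848) were fitted on log2(FPKM + 1) with limma 3.58.1 in R 4.3.3. The fit used group means over all 12 libraries with a shared spread (eBayes, trend and robust). It was tested on simulated data in which each gene had the same spread in all 4 groups. Whether the groups share 1 spread was therefore not tested. Benjamini-Hochberg adjusted p under 0.05 over all tested genes was called. Shares and ratios were tested by exact two-sided permutation with scipy 1.17.1. Named genes were the 6 members and, for each, the tested gene with the smallest profile difference, with identifiers given for at most 2 that rose and 2 that fell. The rule that names the members uses no measured value, but the members, lists and tests were chosen with earlier results of these data known. Alternatives were quantile normalization, median-ratio scaling, no trend, no filter, a filter of 5 FPKM, a pseudocount of 0.1, the compared groups alone, the replicate number as a block and each library left out. Replicates pooled 5 vines each, and p-values measure the spread between them.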

Additional observations from a re-analysis of the deposited data

Results flagged for a closer look

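For 5 members the photoperiod difference itself differed between the days in limma (SD21 minus LD21 less SD7 minus LD7, log2 scale). The values were -1.59 for DFR, -2.87 for LAR1, -1.92 for ANR and -2.65 for UFGT, and 1.81 for LAR2, whose difference was positive at day 21 and negative at day 7. The calls of DFR and ANR were lost without single libraries, with median-ratio scaling and without the filter on low values.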

How the results depend on the processing

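In SD21 against LD21 all 6 members kept their direction and their call in the 20 alternatives, the 2 scalings and each library left out included. The adjusted p of LAR2 came near the threshold, at 0.0481 without SD21 replicate 1, and that of LDOX reached 0.03685 with the groups compared alone. The calls of SD7 against LD7 and LD21 against LD7 lay near the threshold. Of 234 single gene values under a processing alternative, 218 kept direction and side, and of 360 with a library left out, 334 did. The only reversal was LDOX in SD21 against SD7, which ran from -0.920 to 0.351 with a library left out and was positive without SD21 replicate 3. The number of members lower in SD7 against LD7, 1 as reported, was 0 with median-ratio scaling, without the trend, without the filter, with a pseudocount of 0.1, with the groups compared alone and with the replicate block (limma, with 2 at an unadjusted p under 0.05 as reported), and 0 to 1 with a library left out. In photoperiod by day it was 4, and 2 with median-ratio scaling or without the filter, and 2 to 4 with a library left out. In LD21 against LD7 it was 1, and 2 with quantile normalization, 0 without the filter or with a pseudocount of 0.1, and 0 to 1 with a library left out, while members higher numbered 0 (limma, with 1 at an unadjusted p under 0.05), and 3 with the groups compared alone and 0 to 3 with a library left out. Over all genes, SD7 against LD7 gave 78 higher and 104 lower as reported, 60 lower with median-ratio scaling (56 higher), 46 and 62 without the trend, 27 and 35 without the filter, 3 and 6 with the groups compared alone, 32 and 42 with the replicate block, and 0 to 90 and 0 to 124 with a library left out (in limma both were 0 once LD7 replicate 2 was dropped, where 926 and 1232 genes had an unadjusted p under 0.05). LD21 against LD7 gave 2296 higher and 1667 lower, 1185 higher with median-ratio scaling, and 552 to 2643 and 765 to 1765 with a library left out. With a pseudocount of 0.1 the SD21 minus LD21 difference of the log2 ratio was -3.305 for UFGT to LDOX and 3.134 for the summed LAR1, LAR2 and ANR to UFGT, and the SD21 minus SD7 difference -4.460 and 4.488. The cause of these changes was not tested. Replicate numbers showed no clear pairing of the samples, though with 3 libraries a group such correlations cannot exclude it. Deviations of same-numbered libraries correlated between -0.127 and 0.203, with 2 of 18 pairs over 0.1. Those of different-numbered libraries correlated between -0.168 and 0.146, with 4 of 36 pairs over 0.1. The number of libraries that correlated best with their own number in every other group was 0. The block changed no other call of a member. Absolute depth is unknown.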
